A study of Homo sapiens with 18 samples.

Results

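Gene bodies of transcribed genes are usually methylated, whereas CpG islands at promoters are usually not. Coding exons are denser in CpGs than introns, and their methylation is copied through cell division by the maintenance methyltransferase like that of other CpGs. The data below describe CpGs that lie in coding exons of protein-coding genes on chromosomes 1 to 20, at more than 5 kb from the 5′ end of every annotated transcript, and that were read by at least 20 bisulfite reads in each of 3 cell lines. Of 946029 CpGs on these chromosomes with that coverage in all lines, 18278 met the position rule. They fell in 2207 genes, of which 1105 held at least 5 of them. Each CpG was chosen by position and coverage, not by its methylation or MBD-seq depth, but the rule was set with earlier results of these data known.

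The study compared 5 commercial kits that capture methylated DNA with a methyl-binding domain (MBD) before sequencing, with reduced representation bisulfite sequencing (RRBS) of the same lines as a reference. The 3 lines were HCT15, a human colorectal carcinoma line, and DU145 and PC3, human prostate cancer lines, with no treatment named in the labels. MethylMagnet, MethylCollector and MethylCollector Ultra use MBD2b (with the partner protein MBD3L1 in the Ultra version), and MethylMiner uses MBD2. Each kit and line gave 1 MBD-seq library (15 in all) and each line gave 1 RRBS library, so that a line has no biological replicate, and a difference between 2 lines is a difference between 2 libraries.

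RRBS cuts DNA at a CpG-containing site and reads the fragment ends, so it samples the CpG-rich part of exons. Around the gene body coding exon CpGs, the 200 bases held a median of 12 CpGs, against 13 for all CpGs of the same coverage, and the ratio of observed to expected CpGs was 0.627 against 0.692. The median distance to the nearest transcript 5′ end was 10053.5 bp, and the longest was 312202 bp. The median number of reads per CpG was 36 in HCT15, 66 in DU145 and 47 in PC3. The highest value was 996. MBD-seq was far shallower. Its libraries covered between 0.0534% (MethylMagnet, DU145) and 34.3% (MethylMiner, HCT15) of the bases of these chromosomes.

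The stretches printed here show what such an exon looks like. For each line, they come from the first genes by size of the gap among genes of at least 10 such CpGs whose exons were lower in that line than in both other lines by at least 30 percentage points. Sequences are from GRCh37, 5′ to 3′ on the strand of the gene, and capitals mark the CpGs that were measured in all lines. HCT15 was the low line for CCDC102A and NR2F6, DU145 for RIN3 and PRDM13, and PC3 for TBX3. The stretch of CCDC102A is chr16:57562931-57563080 (minus strand, coding exon 1 of 8), that of NR2F6 is chr19:17346421-17346570 (minus strand, coding exon 3 of 4), and that of RIN3 is chr14:93154388-93154537 (plus strand, coding exon 10 of 10). The stretch of PRDM13 is chr6:100062366-100062515 (plus strand, coding exon 4 of 4), and that of TBX3 is chr12:115112265-115112414 (minus strand, coding exon 7 of 8).
CCDC102A: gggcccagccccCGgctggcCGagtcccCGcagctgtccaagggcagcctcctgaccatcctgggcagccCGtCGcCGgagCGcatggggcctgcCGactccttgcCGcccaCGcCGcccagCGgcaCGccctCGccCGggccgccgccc
NR2F6: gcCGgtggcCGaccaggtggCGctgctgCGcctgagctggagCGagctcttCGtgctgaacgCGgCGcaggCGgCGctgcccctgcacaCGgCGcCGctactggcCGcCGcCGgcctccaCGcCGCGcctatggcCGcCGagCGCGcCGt
RIN3: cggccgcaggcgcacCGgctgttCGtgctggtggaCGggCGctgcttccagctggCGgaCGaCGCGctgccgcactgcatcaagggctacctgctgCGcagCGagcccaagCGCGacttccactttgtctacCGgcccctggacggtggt
PRDM13: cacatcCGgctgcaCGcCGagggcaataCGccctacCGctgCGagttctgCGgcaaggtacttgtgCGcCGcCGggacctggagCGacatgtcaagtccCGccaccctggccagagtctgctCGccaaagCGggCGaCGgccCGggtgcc
TBX3: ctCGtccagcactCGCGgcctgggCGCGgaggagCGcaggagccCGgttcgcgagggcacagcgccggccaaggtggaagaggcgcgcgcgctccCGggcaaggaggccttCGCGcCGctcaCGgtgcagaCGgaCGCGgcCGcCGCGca

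In these 150-base stretches the methylation level, i.e. the methylated reads as a percentage of all reads at a CpG, differed between the lines. The 15 measured CpGs printed for CCDC102A averaged 20.9% in HCT15, 99.04% in DU145 and 97.5% in PC3. In RIN3, the 13 CpGs averaged 8.91% in DU145, with a highest value of 65.7%. The lowest value was 90% in HCT15 and 95.7% in PC3, so that DU145 did not overlap with the other lines. PC3 likewise stood apart in TBX3, whose 18 CpGs reached at most 64.2% in PC3 and at least 97.1% in HCT15 and 94.1% in DU145. These genes were printed for their large gaps, and the share of all genes without overlap was not counted. The 17 CpGs of PRDM13 averaged 95.7% in HCT15, 17.0% in DU145 and 62.2% in PC3. In the NR2F6 stretch the 24 CpGs averaged 4.16% in HCT15, 96.8% in DU145 and 69.3% in PC3. In the stretches of CCDC102A, PRDM13 and NR2F6 the low line overlapped with PC3. Its highest value was 94.1%, 61.8% and 52.5%, while the lowest value of PC3 was 90%, 12.5% and 52%.

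Gene body coding exons were highly methylated in all 3 lines. The mean methylation level of the 18278 CpGs was 87.2% ± 22.7 in HCT15, 87.9% ± 25.1 in DU145 and 83.0% ± 26.8 in PC3 (SD over CpGs). Medians were 96.2%, 97.9% and 96.0%. With reads summed over CpGs, HCT15 was at 86.0% (95% Wilson interval 85.9% to 86.1%), DU145 at 85.9% (85.9% to 86.0%) and PC3 at 82.1% (82.1% to 82.2%). These intervals cover counting error only and treat each read at each CpG as independent. CpGs of a fragment share reads, and reads carry no molecular identifiers, so the intervals are too narrow. At least 80% methylation was found at 82.4%, 83.8% and 75.0% of the CpGs in HCT15, DU145 and PC3. At most 20% was found at 758 CpGs (4.15%) in HCT15, 1094 (5.99%) in DU145 and 1203 (6.58%) in PC3. PC3 therefore had fewer exon CpGs at 80% or more than the other lines. It had more CpGs of middle level, 18.4% against 13.4% in HCT15 and 10.2% in DU145.

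**Figure D1:**
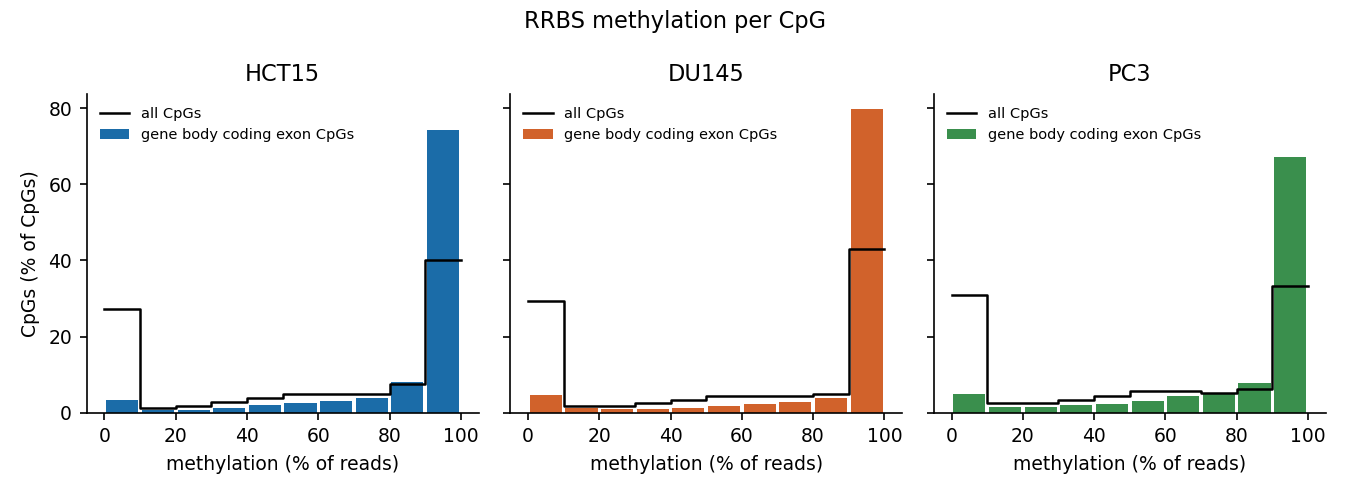
Share of CpGs (y axis, percent) in each class of 10 points of RRBS methylation level (x axis, percent of reads), 1 panel per cell line, with bars for gene body coding exon CpGs and a black line for all CpGs of the same coverage. In each line the highest bar is the class from 90% to 100%, with 74.3% of the exon CpGs in HCT15, 79.9% in DU145 and 67.1% in PC3.

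Other CpGs of the same coverage averaged 58.3%, 57.8% and 52.5% in HCT15, DU145 and PC3. CpGs within 1 kb of a transcript 5′ end averaged 39.5%, 34.5% and 32.9%. The exon CpGs were thus higher than promoter CpGs by 50.4 ± 2.87 percentage points (mean ± SD over the 3 lines), and higher in 3 of 3 lines. They also exceeded CpGs beyond 5 kb that lay outside protein-coding genes, at 74.9%, 80.6% and 67.0%, by 11.9 ± 4.41 points. That class can hold CpGs in genes of other types. Against the other CpGs of gene bodies beyond 5 kb, which lie mainly in introns and untranslated exons, the difference was 5.72 points in HCT15, 0.0287 in DU145 and 4.09 in PC3. An exact two-sided sign permutation over 3 lines cannot give a p below 0.25, and all of these differences reached that value.

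The distance rule cut through a plateau. Coding exon CpGs in the first kb from a 5′ end averaged 49.4% in HCT15, 43.5% in DU145 and 42.3% in PC3. Those from 4 to 5 kb, just outside the rule, averaged 86.4%, 87.3% and 83.6%, and those from 5 to 6 kb, just inside, averaged 88.0%, 89.0% and 84.5%. Farther into the gene, PC3 went to 79.3% beyond 50 kb, whereas HCT15 was at 88.3% and DU145 at 90.5% there (640 CpGs). The share of PC3 CpGs at middle level was 16.3% from 5 to 10 kb and 26.7% beyond 50 kb.

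The difference from the rest of the gene body changed with CpG density, and exons are the denser class (a mean of 14.2 CpGs in 200 bases against 8.31). With 10 to 14 CpGs in the surrounding 200 bases, exon CpGs averaged 89.98% in HCT15, 93.4% in DU145 and 87.2% in PC3, which was 7.00, 5.29 and 7.00 points above other gene body CpGs of that density. With 20 to 60 CpGs the exon CpGs averaged 83.7%, 73.1% and 76.4%, and the differences were 22.6, 19 and 23.1 points. The difference was positive in each of 5 density classes and in 3 of 3 lines. At most 20% methylation was found at 9.67% of the CpG-dense exon CpGs in HCT15, 19% in DU145 and 13.9% in PC3, against 28.4%, 33.9% and 35.1% of the other gene body CpGs of that density. DU145 thus held the highest level of the lines at 10 to 14 CpGs and the lowest at 20 or more.

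**Figure D2:**
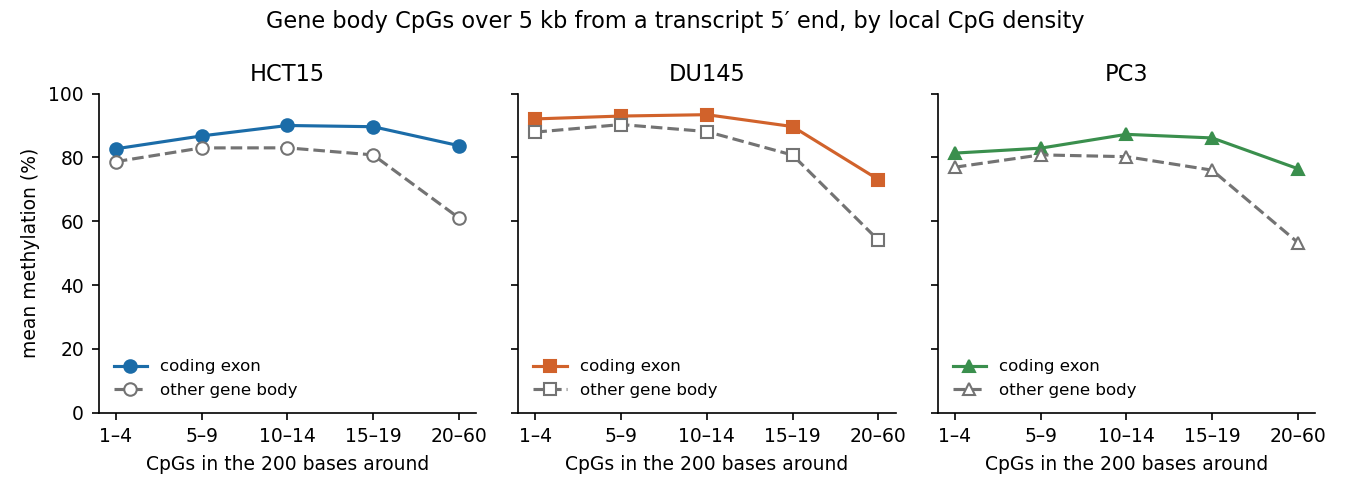
Mean RRBS methylation (y axis, percent) of gene body CpGs beyond 5 kb by the number of CpGs in the surrounding 200 bases (x axis), 1 panel per cell line, with filled symbols for coding exons and open symbols for other gene body CpGs. Both curves are lowest in the class from 20 to 60 CpGs in DU145 and PC3, where exon CpGs are at 73.1% and 76.4% and other CpGs at 54.1% and 53.3%.

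The position within the coding sequence mattered less. In the longest coding transcript of each gene, CpGs of internal coding exons averaged 87.5% in HCT15, 90.01% in DU145 and 82.9% in PC3. CpGs of the last coding exon averaged 87.9%, 84.0% and 83.8%. These last exons were also denser, with a mean of 17.4 CpGs in 200 bases against 12.4 in internal exons, and whether density accounts for the lower level of DU145 in last exons was not tested. Chromosomes ranged from 78.2% to 91.7% in HCT15, from 80.6% to 95.5% in DU145 and from 77.0% to 89.5% in PC3.

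Most exon CpGs were methylated in every line. Of the 18278 CpGs, 12207 (66.8%) were at 80% or more in all 3 lines, and 394 (2.16%) were at 20% or less in all 3. The most frequent pattern that differed between lines was a middle level in PC3 beside a high level in HCT15 and DU145, at 1427 CpGs (7.81%). The median range over the lines was 6.52 points, against 8.21 for all CpGs of the same coverage, and 11.4% of exon CpGs had a range of 50 points or more, against 13.2%.

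Single CpGs were then called lower in a line where Fisher's exact test of methylated and unmethylated reads, adjusted over all 946029 CpGs and the 3 pairs of lines, passed 0.05 against both other lines and the level was at least 30 points below each. In HCT15, 401 exon CpGs (2.19%) were called, beside 2.14% of all CpGs. In PC3, 1044 (5.71%) were called, beside 5.84% of all CpGs. Both shares were near the background. In DU145, 536 (2.93%, Wilson interval 2.70% to 3.19%) were called, beside 2.06% of all CpGs. The 536 lay in 94 genes, against 202 genes in HCT15 and 422 in PC3, so that CpGs of a gene are not independent and the interval is too narrow.

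The exon CpGs called lower in DU145 were CpG-dense. They had a median of 25 CpGs in the surrounding 200 bases, against 10 for those called in HCT15 and 11 in PC3, and 90.1% of them had an observed to expected ratio of at least 0.6, against 54.3% of all exon CpGs. The same order was seen over all CpGs of the same coverage, where the medians were 19 for those called in DU145, 8 in HCT15 and 10 in PC3.

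Genes were compared through the mean over their exon CpGs, for the 1105 genes with at least 5. These CpGs can all lie in 1 exon, so a mean need not describe the whole gene body. Of the 1105 genes, 741 (67.1%) were at 80% or more in all 3 lines. The median gene was at 94.5% in HCT15, 97.6% in DU145 and 93.9% in PC3. A gene was called lower in a line where its mean was at least 30 points below both other lines. With 1 library per line this is a rule of size, with no test. Genes lower in HCT15 numbered 7 (0.633%), those lower in DU145 13 (1.18%) and those lower in PC3 31 (2.81%). In the other direction, 14 genes (1.27%) were higher in HCT15, 9 (0.814%) in DU145 and 5 (0.452%) in PC3. As in the counts of CpGs, the genes lower in DU145 were dense, with a median of 26 CpGs in 200 bases against 11 for all genes. The genes higher in HCT15 (23) and lower in HCT15 (14.5) also lay above the median of all genes, while the genes lower in PC3 (10) and higher in DU145 (8) lay below it and those higher in PC3 (11) were at it.

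In HCT15, the measured exon CpGs of CCDC102A (a coiled-coil protein) and NR2F6 (an orphan nuclear receptor) were low on average. In each gene they all lay within the coding exon of its printed stretch. CCDC102A had 16.2% in HCT15, 98.7% in DU145 and 98.1% in PC3 over 24 CpGs. NR2F6 had 7.503% in HCT15, 97.2% in DU145 and 66.7% in PC3 over 50 CpGs, so it was both lowest in HCT15 and highest in DU145 by the rule. Of its CpGs, 47 of 50 were called lower in HCT15. The other 5 genes had fewer than 10 CpGs each and were C7orf50, DNAJB6, NCAPH, PTPRM and ZNF236.

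In DU145, the low genes with the largest gaps were RIN3, a Rab and Ras interactor of endocytic traffic, and PRDM13, a zinc finger transcription factor of neuronal specification. RIN3 was at 98.1% in HCT15, 8.91% in DU145 and 98.5% in PC3. All 13 of its CpGs were called, beside 2.93% of all exon CpGs, from the reads that also chose the gene. PRDM13 was at 95.5%, 14.0% and 71.2% over 42 CpGs. In RIN3 and in PRDM13 all measured CpGs lay within the coding exon of the printed stretch. The other 6 genes named here come from the same rule of size and differ in function.

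ADRA1B, an adrenergic receptor for noradrenaline, was at 97.5% in HCT15, 17.6% in DU145 and 68.5% in PC3 over 40 CpGs. GPR153, an orphan G protein-coupled receptor, was at 77.9%, 21.8% and 84.9% over 20 CpGs. IL17D, a cytokine of the interleukin 17 family, was at 97.3%, 16.5% and 61.75% over 29 CpGs. In these 3 genes only the mean of DU145 was apart, by the rule, and single CpGs of DU145 and PC3 overlapped. In the order given, the highest value of DU145 was 72.1%, 69.5% and 68.3%. The lowest value of PC3 was 21.5%, 56.6% and 6.25%. The mean of PC3 was below that of HCT15 in ADRA1B and IL17D. ASIP, the agouti antagonist of the melanocortin receptor, was at 98.4%, 41.3% and 90.7%, and WNT6, a Wnt ligand, was at 93.2%, 51.8% and 92.3%. SH2B2, an adaptor of insulin receptor signalling, was at 97.6%, 41.7% and 97.9% over 52 CpGs with an SD of 43.2 in DU145, so its CpGs differed widely from each other in that line. Beyond 10 kb from a 5′ end the gap of SH2B2 was gone (-3.27 points). The other 5 genes were GATA3, LACTBL1, LRFN1, PALLD and PGLYRP2.

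In PC3, the largest gap was that of TBX3, a T-box transcription factor of limb and mammary development, at 97.7% in HCT15, 98.4% in DU145 and 19.5% in PC3. All 38 of its CpGs were called lower, beside 5.71% of all exon CpGs, from the reads that also chose the gene. PAX1, a paired box factor of the axial skeleton, was at 90.1%, 86.0% and 36.98% over 11 CpGs. Unlike TBX3, the other named genes of PC3 had middle levels in that line.

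GRIK3, a kainate receptor subunit, was at 77.95% in HCT15, 89.5% in DU145 and 39.0% in PC3. TRPM3, a cation channel, was at 94.5%, 92.3% and 54.7%. KNDC1, a guanine exchange factor of neurons, was at 89.6%, 79.4% and 45.7%, with an SD of 35.8 over 21 CpGs in PC3. TNN, a tenascin of the matrix, was at 90.8%, 93.6% and 54.2%, and MYH13, a muscle myosin heavy chain, was at 70.1%, 76.0% and 33.9%. TMEM132C, a transmembrane protein, was at 66.1%, 85.5% and 30.2%. The median of the gene means in the low line was 43.0% for the 31 genes of PC3, 41.3% for the 13 of DU145 and 17.7% for the 7 of HCT15.

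A gene called higher was at least 30 points above both other lines, so low or middle levels in those lines follow from the rule. In HCT15 the 4 with the largest gaps were at most 33.8% in both. RIN2, a relative of RIN3, was at 96.7% in HCT15, 19.997% in DU145 and 18.3% in PC3. DLL3, an inhibitory Notch ligand, was at 93.8%, 17.7% and 13.2%. ADGRA2, an adhesion G protein-coupled receptor of brain vessels, was at 90.6%, 19.9% and 19.9%, and IGLON5, a neuronal adhesion molecule, at 93.8%, 33.8% and 33.6%. Both prostate lines were low in these 4 genes, which the ranking by gap favours, and each line was 1 library. IL17D, also higher in HCT15 by the rule, was at 16.5% in DU145 and 61.75% in PC3.

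In DU145 the genes of at least 10 CpGs above the other lines were KLB, a co-receptor for endocrine fibroblast growth factors (47.1% in HCT15, 96.3% in DU145, 57.0% in PC3), MUC16, a membrane mucin (61.9%, 96.6%, 47.8%), WDFY4 (56.8%, 89.6%, 33.9%) and NR2F6. Their levels in the other lines were mostly in the middle range, and only NR2F6 was under 20% in one of them. The other 5 of the 9 genes had fewer CpGs and were ANO4, DRD2, GRIP2, HTR3A and KCNQ3. In PC3 the genes of at least 10 CpGs included PALLD, an actin-binding protein, at 47.4% in HCT15, 9.24% in DU145 and 98.3% in PC3 over 29 CpGs. TK1, the thymidine kinase of dividing cells, was at 25.4%, 31.0% and 81.7%, and HSPA12B, a member of the heat shock protein family, was at 48.2%, 26.8% and 88.6%. The gap of HSPA12B was 0.316 points when only CpGs beyond 10 kb were taken.

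**Figure D3:**
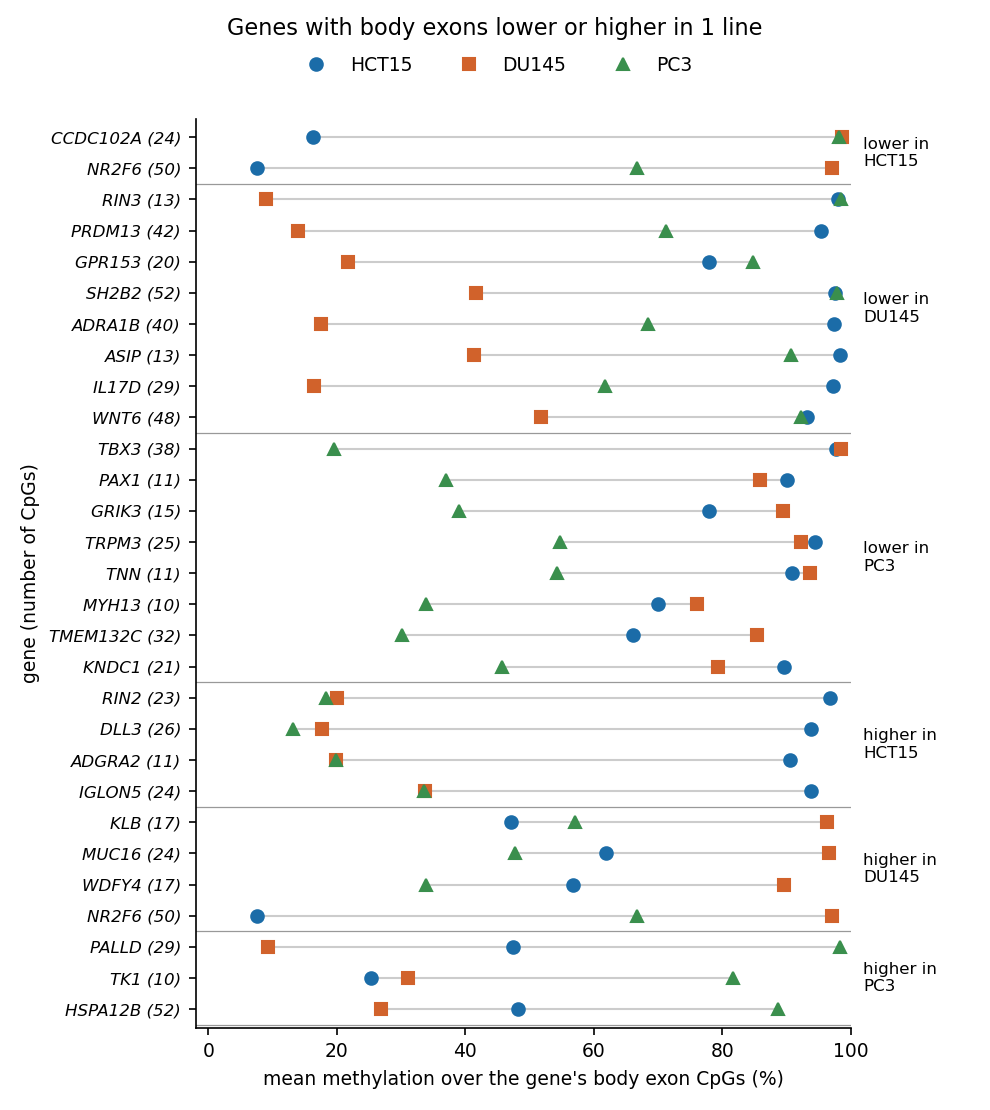
Mean RRBS methylation over the body exon CpGs of a gene (x axis, percent) for the named genes lower or higher in 1 line (y axis, with the number of CpGs), 1 symbol per cell line and no error bars. The low symbol of each of the 2 genes of HCT15 is under 20%, while the low symbols of PC3 spread from 19.5% in TBX3 to 54.7% in TRPM3.

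A few body exons had little methylation in every line. The mean was at most 20% in all 3 lines in 6 genes (0.543%), namely CRYBG1, CTF1, DUSP15, PRR7, SDR42E2 and WNT8B. CTF1, the cytokine cardiotrophin, was at 10.6% in HCT15, 9.66% in DU145 and 10.7% in PC3 over 28 CpGs. DUSP15, a dual specificity phosphatase, was at 11.4%, 12.0% and 16.1%, and CRYBG1 was at 17.4%, 15.3% and 16.7% at a distance of at least 20247 bp from a 5′ end. Among genes of at least 20 CpGs, CCM2L (7.36%, 8.20% and 35.7%) and MAGI2, a synaptic scaffold protein (22.1%, 17.6% and 13.3%), were the next lowest. Each of these 5 genes had a median of 26 or more CpGs in 200 bases.

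The 11 families of genes were then described by counts over their members with at least 5 exon CpGs, to be read beside the values over all 1105 genes. Families were matched by gene symbol, so a member need not have the function that names its family. Over all genes, 67.1% were at 80% or more in all lines, and the medians were 94.5% in HCT15, 97.6% in DU145 and 93.9% in PC3. The shares called lower were 0.633%, 1.18% and 2.81%, and those called higher 1.27%, 0.814% and 0.452%, so that a family of 6 to 48 genes would hold few or no called genes at these shares.

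Among 48 ion channels, 7 (14.6%) were lower in PC3, beside 2.81% of all genes, namely ANO4, GRIK3, GRIN2B, KCNB2, KCNK5, KCNQ3 and TRPM3. Calls in the other direction were GRIN2C, higher in HCT15, and ANO4 and KCNQ3, which were also higher in DU145. The median level of the family was 87.3%, 92.5% and 79.7% in the order HCT15, DU145, PC3. Of its genes, 41.7% were at 80% or more in all lines. GRIN2C, an NMDA receptor subunit with 100 exon CpGs, was at 71.9%, 37.5% and 40.3%, and CACNA1A, a calcium channel with 77, was at 92.5%, 88.5% and 87.4%.

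Among 26 developmental transcription factors, GATA3 and PRDM13 were lower in DU145, PAX1 and TBX3 in PC3, and FOXO6 and LHX5 higher in HCT15, which is 7.69% of the family for each of these 3 pairs. The remaining members did not pass the rule of size, and 57.7% of the family were at 80% or more in all lines. GLI2, the Hedgehog effector, was at 96.7%, 98.7% and 96.6% over 98 CpGs, and CUX1 at 96.9%, 98.2% and 96.7%. Of 35 zinc finger genes, 27 (77.1%) were at 80% or more in all lines, beside 67.1% of all genes, and ZNF236 was lower in HCT15. In that family ZNF835 was at 93.5%, 98.4% and 93.5%, while ZNF469 had middle levels of 64.0%, 62.1% and 52.6% over 82 CpGs.

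Of 12 chromatin regulators, 11 (91.7%) were at 80% or more in all lines, beside 67.1% of all genes, and their medians were 95.9%, 98.2% and 98.05%. None was called, where few or none would be at the shares over all genes. SETD1B, a histone methyltransferase, was at 95.7%, 97.5% and 97.02% over 93 CpGs, and TRRAP, a scaffold of acetyltransferase complexes, was at 97.8%, 98.4% and 98.2%. Of 6 genes of translation and splicing, 4 (66.7%) were at 80% or more in all lines and SRRM3 was higher in HCT15. EIF3A was at 97.8%, 98.2% and 98.2% and EEF1A2 at 85.6%, 98.6% and 98.2%.

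The Notch and Wnt pathway (23 genes) held DLL3 and WNT3A, higher in HCT15, and WNT6, lower in DU145, and 60.9% of its genes were at 80% or more in all lines. APC2, a relative of the Wnt regulator APC, had 145 exon CpGs and was at 52.3%, 32.1% and 19.6%, with an SD of 44.2 over CpGs in HCT15. Among 22 axon guidance genes, PTPRM was lower and EFNA2 higher in HCT15, and SEMA7A was lower in PC3. Of these 22 genes, 31.8% were at 80% or more in all lines, beside 67.1% of all genes, and the medians were 84.1%, 89.7% and 83.3%. NRXN2 was at 85.1%, 84.6% and 76.1%, and EPHA8 at 79.4%, 74.5% and 84.5%. Of 33 genes of the matrix list, which also holds mucins, 39.4% were at 80% or more in all lines, with medians of 87.0%, 94.4% and 82.8%. The membrane mucin MUC16 was higher in DU145 and TNN lower in PC3. FBN3 was at 89.7%, 90.7% and 81.2% and ADAMTS14 at 93.4%, 96.5% and 82.8%.

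Among 11 cadherins, FAT2 was lower and CDH10 higher in PC3, and 54.5% were at 80% or more in all lines. CDH23 was at 89.2%, 96.0% and 89.2%, and CDH22 at 87.9%, 55.5% and 65.4%. Of 25 motor proteins, 72% were at 80% or more in all lines, and MYH13 and MYH8 (8% of the family, beside 2.81% of all genes) were lower in PC3. KIF26A and KIF26B had 84.1%, 81.2% and 70.9%, and 81.4%, 77.8% and 75.9%. Of 33 transporters, 63.6% were at 80% or more in all lines, and SLC6A5 and SLCO3A1 (6.06%) were lower in PC3. SLC45A4 was at 96.1%, 96.2% and 92.4%, and SLC8A2 at 95.9%, 81.6% and 69.3%. Across all families, the counts are over 1 library per line and carry no test.

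The 15 MBD-seq libraries measured the same exon CpGs by capture. To compare libraries of unequal depth, the mean depth at the exon CpGs was divided by the mean depth of the genome in the same library. MethylMagnet had the highest enrichment, 105 ± 12.5 (mean ± SD, n = 3 lines), before MethylCollector with 79.8 ± 5.56 and its Ultra version with 41.9 ± 4.73. MethylCap had 15.7 ± 0.99 and MethylMiner 4.27 ± 1.02. Each line gave the kits in this order. The kit accounted for 99.04% of the sum of squares between libraries on the log2 scale (exact permutation of kits within lines, one-sided, p = 6.94e-05, the smallest that 14400 relabellings can give). Relative to all CpGs of the same RRBS coverage, the exon CpGs were at 4.12 ± 0.641, 3.74 ± 0.499, 3.10 ± 0.218, 2.45 ± 0.160 and 1.42 ± 0.0335 in the same order of kits, with kits taking 95.3% (p = 0.000139 by the same exact test).

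The kits also differed in how much of the exons their libraries reached. An exon CpG had a depth of at least 1 at 21.3% ± 15.6 of positions with MethylMagnet, 30.6% ± 20.04 with MethylCollector, 42.7% ± 30.4 with MethylCollector Ultra, 62.7% ± 21.1 with MethylCap and 57.2% ± 13.9 with MethylMiner (n = 3 lines). DU145 was lowest of the lines with 4 of the kits, at 5.39%, 11.8%, 7.91% and 47.3% from MethylMagnet to MethylCap, and PC3 was lowest with MethylMiner, at 47.9%. Kits of higher enrichment mostly had shallower libraries, with exceptions. In PC3 the MethylMagnet library covered more exon CpGs than that of MethylCollector (36.5% against 28.4%) and was also more enriched (91.7 against 78.5). The part of library depth in the differences between kits was not tested.

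RRBS state separated the kits as well. Exon CpGs at 80% or more in the same line were compared with those at 20% or less, and the ratio of their mean depths was taken. MethylCollector had 6.23 ± 0.396 and MethylCollector Ultra 5.68 ± 2.56, followed by MethylMagnet at 4.56 ± 2.64, MethylCap at 3.36 ± 0.582 and MethylMiner at 1.04 ± 0.0411 (n = 3 lines). The ratios of MethylMiner were 0.995 in HCT15, 1.08 in DU145 and 1.04 in PC3, so that depth hardly changed with methylation. Those of MethylMagnet ranged from 1.66 in DU145, with a summed depth of 40 at 1094 unmethylated CpGs, to 6.83 in PC3. Kits took 79.3% of the sum of squares (exact permutation, one-sided, p = 0.0108), and without MethylMiner 32.0% (exact permutation p = 0.269). Leaving out 1 line gave shares from 77.2% to 95.4% with exact permutation p from 0.075 to 0.117, so the call rests on all 3 lines.

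**Figure D4:**
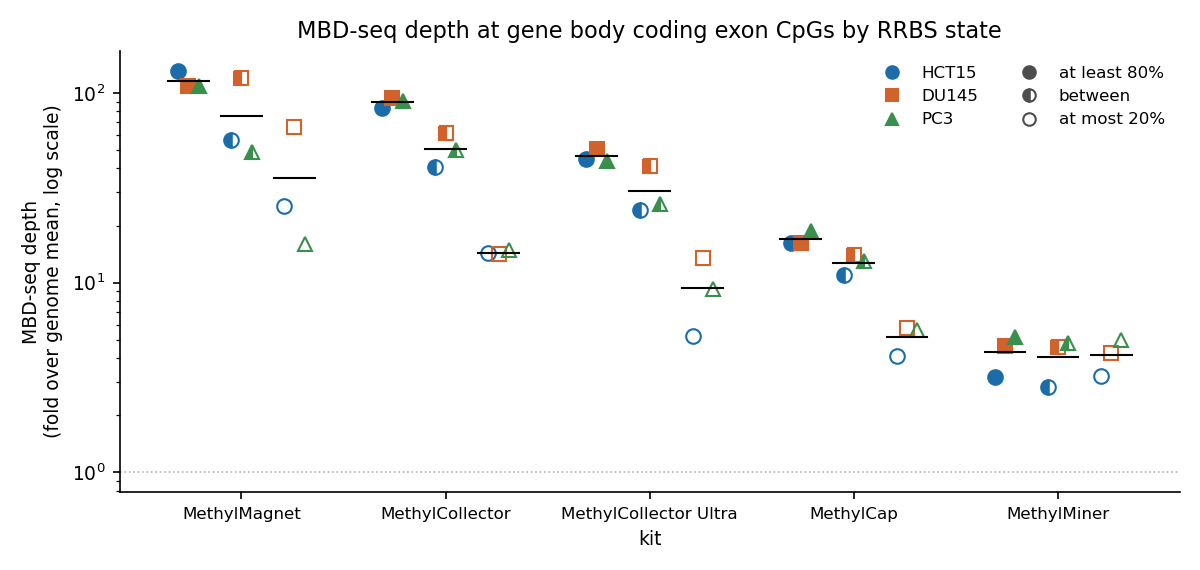
MBD-seq depth at gene body coding exon CpGs as fold over the mean depth of the genome (y axis, log scale) for each kit (x axis) and cell line (symbol), with filled symbols for CpGs of at least 80% methylation, partly filled symbols for CpGs between, and open symbols for CpGs of at most 20%. Black lines are means over the 3 lines, which go from 116 to 35.7 in MethylMagnet and from 4.32 to 4.16 in MethylMiner.

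Unmethylated exon CpGs were the denser ones, with a median of 21, 25 and 19 CpGs in 200 bases in HCT15, DU145 and PC3 against 12 for methylated ones in each line. The ratio was therefore also taken among exon CpGs with at least 20 CpGs in 200 bases, a choice made after the data were seen. This limit did not match density between methylated and unmethylated CpGs within the class. MethylCollector then had 12.3 ± 1.70, MethylMagnet 10.1 ± 3.83 and MethylCollector Ultra 8.63 ± 4.67, while MethylCap had 4.88 ± 1.10 and MethylMiner 1.21 ± 0.212 (n = 3 lines). Kits took 90.4% of the sum of squares (exact permutation p = 0.00319). The ratio was higher than over all exon CpGs for each kit in its mean.

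Among methylated exon CpGs, the enrichment grew with CpG density at a different rate in each kit. From 5 to 9 CpGs to 20 to 60 CpGs, it went from 8.00 ± 2.65 to 384 ± 33.6 with MethylMagnet, from 16.9 ± 1.90 to 200.1 ± 23.8 with MethylCollector and from 15.2 ± 0.659 to 87.6 ± 18.8 with MethylCollector Ultra. With MethylCap it went from 10.7 ± 0.669 to 23.5 ± 5.23, and with MethylMiner from 3.17 ± 0.529 to 5.75 ± 1.89 (mean ± SD, n = 3 lines). MethylMagnet had the highest enrichment of all kits in the densest class, whereas from 5 to 9 CpGs its libraries (5.67 to 10.9) overlapped those of MethylCap (10.2 to 11.5). With 1 to 4 CpGs, MethylCap had the highest mean, 3.94 ± 0.613, and the MethylMagnet libraries of HCT15 and DU145 and the MethylCollector Ultra library of DU145 had no depth at these CpGs.

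**Figure D5:**
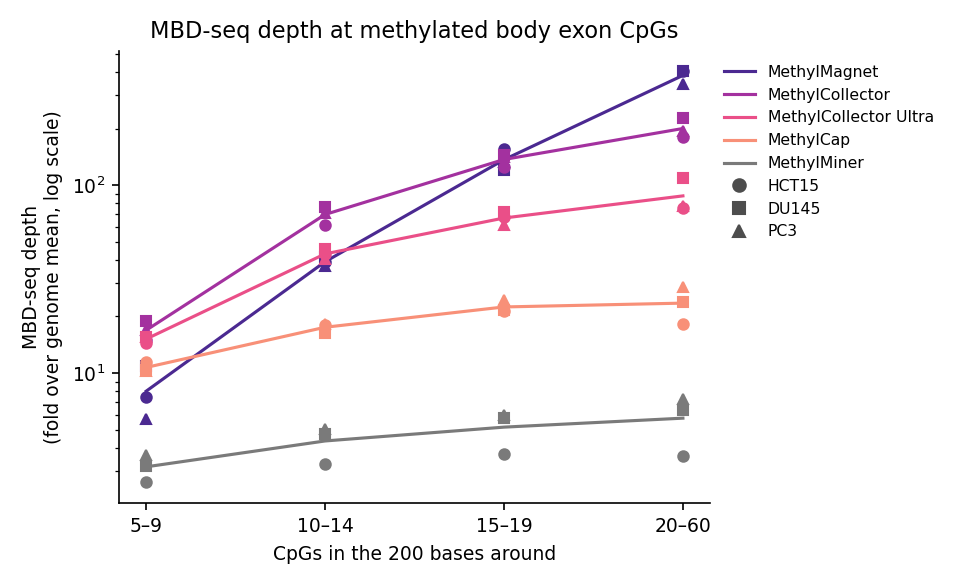
MBD-seq depth as fold over the mean depth of the genome (y axis, log scale) at exon CpGs of at least 80% methylation, by the number of CpGs in 200 bases (x axis), with a colour per kit, a symbol per cell line and a line through the mean over the 3 lines. In the class from 20 to 60 CpGs the means go from 384 in MethylMagnet down to 5.75 in MethylMiner, and the class from 1 to 4 CpGs is not drawn.

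The exons called lower by RRBS were also read by MBD-seq, which did not take part in the calls. For each set of genes lower in 1 line, the mean depth was divided by the mean depth at all exon CpGs of the same library. In the 31 genes lower in PC3, MethylMagnet gave a relative depth of 0.853 in HCT15, 1.19 in DU145 and 0.156 in PC3. In the same order it was 0.682, 0.470 and 0.0686 with MethylCollector, 0.711, 0.447 and 0.274 with MethylCollector Ultra, and 0.781, 0.862 and 0.383 with MethylCap. PC3 was the lowest line with these 4 kits. With MethylMiner the values were 0.828, 0.725 and 0.780, and PC3 was not the lowest.

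In the 7 genes lower in HCT15, the relative depth of HCT15 was 0.298 with MethylCollector, 0.203 with MethylCollector Ultra and 0.234 with MethylCap, lowest of the lines in each, and 1.46 with MethylMiner. MethylMagnet had a summed depth of 5 in HCT15 and 0 in DU145 at these 110 CpGs. In the 13 genes lower in DU145, DU145 was lowest with each kit, at 0.464 with MethylCollector, where HCT15 had 2.09 and PC3 1.61, and at 1.11 with MethylCap, where HCT15 had 1.18 and PC3 1.199. Over the 3 sets and 5 kits, the line with the loss had the lowest relative depth in 12 of 15 cases, and in 11 of 12 without MethylMiner. For the sets of single CpGs called lower it was 14 of 15 and 12 of 12. The counts take no account of the size of a difference and include near-ties. For the CpGs called lower in PC3, MethylMiner gave 0.895 in HCT15, 0.883 in DU145 and 0.882 in PC3. Libraries of a line share its DNA, so these cases are not independent, and no test was made.

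Single genes followed this order less regularly. Over the 18 named genes lower in 1 line and 5 kits, the low line had the lowest relative depth alone in 45 of 90 cases. It was tied at 0 with another line in 13, no line had any depth in 7, and it was not the lowest in 25, of which it was the highest in 14. By kit, the low line was lowest alone in 12 of 18 genes with MethylCap, 10 with MethylCollector, 9 with MethylCollector Ultra and 7 each with MethylMagnet and MethylMiner. In RIN3 it was the lowest with each kit.

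At the 13 CpGs of RIN3 the summed depth of DU145 was 0 with each of the 5 kits, while HCT15 had 37, 78, 64, 87 and 56 and PC3 had 64, 10, 62, 21 and 37 from MethylMagnet to MethylMiner. The DU145 libraries were shallow, with mean depths over all exon CpGs of at most 0.827 (MethylMiner), and whether a depth of 0 at so few CpGs comes from the methylation was not tested. At the 50 CpGs of NR2F6 the summed depth of HCT15 was 0 with MethylMagnet and both MethylCollector kits, 17 with MethylCap and 167 with MethylMiner, while PC3 had 212, 79, 113, 101 and 57. DU145, at 97.2% by RRBS, had 0, 23, 0, 37 and 11, so that with MethylMagnet and MethylCollector Ultra it was at 0 like HCT15. MethylMiner therefore read the mostly unmethylated CpGs of this NR2F6 exon in HCT15 at 2.17 times its own mean over exon CpGs.

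At the 38 CpGs of TBX3 MethylCollector had 97 in HCT15 and 0 in PC3, and MethylCap had 194 in HCT15, 27 in DU145 and 35 in PC3, where the relative depth was 1.25, 0.89 and 0.84. MethylCollector also had 0 in DU145 there, where RRBS gave 98.4%, so that a depth of 0 in these shallow libraries does not mark an unmethylated exon. PAX1 had a summed depth of 0 in all lines with MethylMagnet and MethylCollector. With MethylCap PC3 had 0, beside 32 in HCT15 and 11 in DU145, whereas with MethylCollector Ultra PC3 had 16, beside 11 in HCT15 and 0 in DU145.

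Other named genes went against RRBS with single kits. ADRA1B, lower in DU145 by RRBS, had relative depths with MethylCap of 0.129 in HCT15, 1.42 in DU145 and 1.39 in PC3. ASIP, also lower in DU145, had 1.37, 2.81 and 0.629 with the same kit. WNT6 was highest in DU145 with MethylMagnet (5.27, 5.92 and 2.44), from a summed depth of 17 in DU145. In these 3 genes the low line was thus not the lowest with the kit given. TNN, lower in PC3, had 0.601, 1.14 and 1.16 with MethylCap, and CCDC102A, lower in HCT15, had 0.0714, 0.786 and 0, with PC3 the lowest. A summed depth at a few CpGs can come from few fragments, so these are values of single libraries with no test.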

How the data were processed

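RRBS values are counts that the authors deposited per CpG: methylated reads and all reads, both strands summed. The RRBS aligner is not given in the sources used here. MBD-seq values are the signal that the authors deposited, i.e. the depth (coverage) of mapped fragments along the genome. Read pairs had been mapped with Bowtie (hg19, per the submitters' processing notes), kept where both ends mapped uniquely and close together, and duplicates were collapsed. The depth was not scaled.

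CpGs on chromosomes 1 to 20 of GRCh37 with at least 20 reads in all 3 lines were used, since the RRBS file of PC3 stops on chromosome 21 here. Coding exons and transcript 5′ ends were taken from GENCODE 44 on GRCh37. Sequences were read from that genome. One stretch is not reported here. A CpG in 2 genes counted in both (25 CpGs), and 9 CpGs only in readthrough genes had no gene value. Density is the number of CpGs in 200 bases around a CpG. Fisher's exact test was adjusted by Benjamini-Hochberg over all CpGs and pairs of lines, and compares libraries. Kits were compared by the share of the sum of squares on the log2 scale, with an exact permutation of kits within lines, where the 3 lines are the replicates. Where a summed depth was under 3, 3 stood in for it in ratios of methylated to unmethylated CpGs. Both tests were tested on simulated data. Intervals are Wilson intervals at 95%, cover counting error only and are too narrow where reads or CpGs are not independent.

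Named genes were, for each line, up to 8 lower and 4 higher genes of at least 10 CpGs with the largest gap to the nearer line, the 5 lowest genes of at least 20 CpGs, and the 2 genes with most CpGs in each of 11 lists, which were matched by symbol. Members, lists and rules were chosen with earlier results of these data known. Genes named only in counts of 13 or fewer calls, or as called members of a list, fall outside this rule. Alternatives changed the coverage minimum, the distance, the gap, the genes' minimum of CpGs and the libraries used. Python 3.11.15, numpy 2.4.6, pandas 2.3.3, scipy 1.17.1, numba 0.67.0 and matplotlib 3.10.9 were used.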

Additional observations from a re-analysis of the deposited data

Results flagged for a closer look

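The ratio of MBD-seq depth between methylated and unmethylated gene body exon CpGs drew attention because it differed between kits in the same lines. Kits took 79.3% of its sum of squares (exact permutation of kits within lines, one-sided, p = 0.0108). MethylMiner stood apart, with ratios from 0.995 to 1.08 over the 3 lines, while the lowest ratio of any other library was 1.66 (MethylMagnet, DU145). Without MethylMiner the share was 32.0% (exact permutation p = 0.269), so a difference among the other 4 kits was not shown. Unmethylated exon CpGs were denser than methylated ones. Among CpGs with at least 20 CpGs in 200 bases, a lower limit that does not match density, the share was 90.4%. The ratios were there from 0.992 to 1.42 with MethylMiner and from 3.83 to 14.2 with the other kits.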

How the results depend on the processing

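Mean methylation moved under each alternative, by less than 3 points. In HCT15, DU145 and PC3 it was 87.3%, 88.7% and 83.4% with coverage of at least 10, 86.0%, 85.1% and 80.7% with at least 50, 87.4%, 87.1% and 82.9% over 2 kb, 87.6%, 88.6% and 82.6% over 10 kb, 87.3%, 88.0% and 83.2% without the deepest CpGs (above the 99th percentile), 86.0%, 85.9% and 82.1% with reads summed, and 88.3%, 90.8% and 84.9% with every gene counted once. Whether HCT15 or DU145 was the higher changed with the setting.

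Counts of genes followed the thresholds. Genes lower in HCT15 numbered 15 (coverage of at least 10), 2 (at least 50), 18 (over 2 kb), 3 (over 10 kb), 2 (at least 10 CpGs) and 21 (gap of 20 points). Those lower in DU145 numbered 31 (over 2 kb), 6 (over 10 kb), 21 (gap of 20) and 8 (gap of 40). Those lower in PC3 numbered 55 and 11 (coverage of at least 10 and 50), 60 and 18 (over 2 and 10 kb), 10 (at least 10 CpGs), and 81 and 11 (gap of 20 and 40). Genes higher in HCT15 numbered 43 and 8 (over 2 and 10 kb) and 25 and 8 (gap of 20 and 40). Those higher in DU145 numbered 17 and 1 (coverage of at least 10 and 50), 5 (over 10 kb), 4 (at least 10 CpGs), and 22 and 3 (gap of 20 and 40). Those higher in PC3 numbered 3 (coverage of at least 50), 10 and 1 (over 2 and 10 kb), 3 (at least 10 CpGs) and 10 (gap of 20). CpGs called lower in HCT15, DU145 and PC3 numbered 173, 281 and 426 with a gap of 50 points, and 72, 138 and 291 with coverage of at least 50.

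Of 148 recomputed gaps of the 29 named lower or higher results, 142 stayed at 30 points or more. This count says little about robustness, since the genes were named for their large gaps and many settings kept the same CpGs. Settings that gave no value for a gene are not among the 148, such as CCDC102A over 10 kb. The gap of SH2B2 in DU145 reversed over 10 kb (-3.27 points). Those of NR2F6 in DU145 (27.8, without the deepest CpGs), TNN (25.1, over 2 kb), KNDC1 (23.4 with coverage of at least 10 and 26.9 over 2 kb) and HSPA12B (0.316, over 10 kb) fell below 30.

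The kit effect on enrichment stayed past 0.05 in every setting run. That on the ratio of methylated to unmethylated CpGs was 32.0% without MethylMiner (exact permutation p = 0.269) and from 77.2% to 95.4% with 1 line left out (exact permutation p from 0.075 to 0.117). Permuting kits over all libraries, with no replicate block of lines, changed neither call (79.3%, permutation p = 0.0050 for the ratio).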

Other observations

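Methylation of gene body exons was shared within a gene more than across genes. The gene took 53.5% of the sum of squares over exon CpGs in HCT15, 65.7% in DU145 and 59.1% in PC3, over 1105 genes. The SD within a gene was under 10 points in 60%, 73.8% and 55.3% of the genes and 30 points or more in 6.52%, 5.43% and 9.05%. Neighbouring exon CpGs at 2 to 10 bases from each other differed by 30 points or more in 5.43%, 4.76% and 7.36% of 7105 pairs, and those at 51 to 100 bases in 16.9%, 8.87% and 20% of 620 pairs. CpGs of a short fragment share reads, so these are descriptions.

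By codon position of the C, exon CpGs averaged 89.5%, 90.2% and 85.4% in HCT15, DU145 and PC3 at position 1, 86.6%, 87.2% and 82.3% at position 2, and 86.3%, 87.1% and 81.8% at position 3. The order was the same in 3 of 3 lines. CpGs at position 1 were also the sparser ones, with a mean of 12.8 CpGs in 200 bases against 15.1 and 14.7.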
